A study of Drosophila melanogaster with 2 samples.

Results

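The genes described are the 93 cytosolic ribosomal protein genes among the 13968 protein-coding genes of Drosophila melanogaster, 54 of the large ribosomal subunit and 39 of the small one. They were taken by symbol, as every protein-coding gene named RpL or RpS and a digit or RpLP, together with stubarista (sta), which encodes the small subunit protein RpSA. The study mapped where the transcription factor Adf1 sits on DNA, by chromatin immunoprecipitation and sequencing (ChIP-seq), in whole embryos of 0 to 24 h. It holds 1 group of 2 biological replicates of transgenic flies of the strain Adf1-GFP, which carry an insertion that makes Adf1 joined to enhanced green fluorescent protein, and per the labels an anti-GFP antibody was used, though their antibody entry reads Adf1 and was taken here to mean the target. There is no control sample among them, and the sources used here give neither the number of embryos per replicate nor the promoter of the insertion, nor whether untagged Adf1 was present. A gene was called bound where the summit of a peak in the conservative list, the authors' thresholded list for both replicates together, lay within 500 bp of any of its transcription start sites (TSSs). On that rule 46 of the 93 members were bound and 47 were not. The lists hold no read counts and no expression values, so sequencing depth is unknown and neither stage nor tissue could be checked against markers. The 95% intervals given with shares are Wilson intervals that cover counting error only, and genes are not biological replicates.

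Cytosolic ribosomal proteins build the large and small subunits of the ribosome and are made in nearly every cell in near equal amounts, so their genes are known for being transcribed strongly and together. In the fly many of them have a short pyrimidine-rich initiator, the TCT element, at the TSS, and loss of 1 copy often gives the slow-growing Minute phenotype. Adf1 belongs to the MADF family of DNA-binding proteins and is best known from the alcohol dehydrogenase gene promoter. The factors best known at fly ribosomal protein promoters are DREF, which binds the DNA replication-related element (DRE, TATCGATA), M1BP, which binds core promoter motif 1 (searched here as its part GTCACACT), and the TBP relative Trf2.

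Promoter sequences are shown for the members with the strongest peaks in each subunit (RpL7 and RpL14, RpS27 and RpS29), for RpS25 and RpL27, whose summits lay at a DRE, for the neighbouring copies RpS14b (bound) and RpS14a (unbound), and for 2 other unbound members, RpL13A and RpL9. Each runs 5′ to 3′ on the strand of the gene and ends with the first 30 bases from the TSS of the canonical transcript. Capitals mark a DRE, a GTCACACT word (AGTGTGAC on the strand shown where it lies on the other strand) or, at the TSS, the TCT-type words CTTTT and CTTTC. Coordinates and bases are those of the Release 6 genome (dm6).
RpL7, bound, chr2L:10200945-10201033 (+): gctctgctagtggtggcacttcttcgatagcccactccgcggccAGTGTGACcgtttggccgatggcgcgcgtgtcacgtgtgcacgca
RpL14, bound, chr3L:8600886-8601035 (+): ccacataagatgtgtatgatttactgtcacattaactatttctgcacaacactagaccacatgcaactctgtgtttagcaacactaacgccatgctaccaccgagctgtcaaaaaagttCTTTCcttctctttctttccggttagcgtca
RpS27, bound, chr3R:25247485-25247634 (-): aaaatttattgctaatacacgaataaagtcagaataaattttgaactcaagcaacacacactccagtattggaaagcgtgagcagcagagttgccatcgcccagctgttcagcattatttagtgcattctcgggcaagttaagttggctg
RpS29, bound, chr3R:9777922-9778071 (+): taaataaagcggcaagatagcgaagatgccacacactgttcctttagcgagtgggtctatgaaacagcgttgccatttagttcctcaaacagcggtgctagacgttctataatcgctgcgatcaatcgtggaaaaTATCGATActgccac
RpS25, bound, chr3R:11216258-11216407 (-): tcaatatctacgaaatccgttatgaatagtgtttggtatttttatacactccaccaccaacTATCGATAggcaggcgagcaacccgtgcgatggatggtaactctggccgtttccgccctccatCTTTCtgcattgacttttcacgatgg
RpL27, bound, chr3R:25685022-25685171 (-): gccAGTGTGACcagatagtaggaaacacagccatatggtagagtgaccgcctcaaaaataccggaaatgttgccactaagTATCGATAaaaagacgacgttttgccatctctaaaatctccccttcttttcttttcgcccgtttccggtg
RpS14b, bound, chrX:7934778-7934927 (+): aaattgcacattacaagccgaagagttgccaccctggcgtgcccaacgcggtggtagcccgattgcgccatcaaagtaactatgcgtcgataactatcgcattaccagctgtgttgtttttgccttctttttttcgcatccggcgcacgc
RpS14a, unbound, chrX:7933622-7933771 (+): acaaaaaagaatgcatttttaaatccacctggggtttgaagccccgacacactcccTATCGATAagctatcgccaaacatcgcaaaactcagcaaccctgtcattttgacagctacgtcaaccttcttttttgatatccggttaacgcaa
RpL13A, unbound, chr3R:5624354-5624503 (+): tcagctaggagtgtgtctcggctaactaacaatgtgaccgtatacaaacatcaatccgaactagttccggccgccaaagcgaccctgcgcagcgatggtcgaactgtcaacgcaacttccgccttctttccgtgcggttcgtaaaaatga
RpL9, unbound, chr2L:11004124-11004183 (-): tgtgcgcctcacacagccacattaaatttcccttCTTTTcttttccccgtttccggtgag

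The large and small subunit genes were bound at like shares. Of the 54 large subunit genes 26 were bound (48.1%, 35.4 to 61.1%), and of the 39 small subunit genes 20 (51.3%, 36.2 to 66.1%), so the intervals overlap over most of their length. Over all members the share was 49.5% (39.5 to 59.4%), against 18.9% of all protein-coding genes. Within the replicates' own thresholded lists, 36 members (38.7%, 29.4 to 48.9%) were called in replicate 1, against 14.3% of all genes. In replicate 2 there were 49 (52.7%, 42.6 to 62.5%), against 23.2% of all genes. In those lists the order of the subunits was turned round: 40.7% of large and 35.9% of small subunit genes in replicate 1, and 53.7% and 51.3% in replicate 2. It also turned in the longer optimal list for both replicates, with 57.4% of large and 53.8% of small subunit genes, beside 23.2% of all genes. No order of the subunits was therefore stable over the lists. Among the stronger 50% of the conservative list by signal, 11 large and 4 small subunit genes remained, which was 20.4% and 10.3%, beside 9.71% of all genes.

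**Figure D1:**
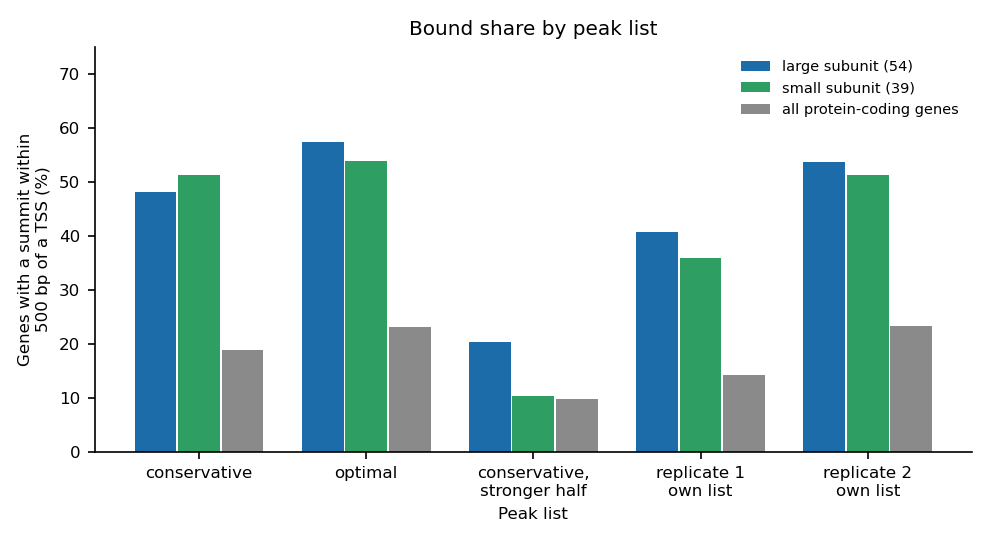
Share of large subunit genes, small subunit genes and all protein-coding genes called by a summit near a TSS, up to 500 bp (vertical axis, percent) in 5 peak lists (horizontal axis); each bar is 1 share. Both subunits lie above all genes in each list, by little for the small subunit (10.3% against 9.71%) in the stronger 50% of the conservative list, and which subunit is higher differs between lists.

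Signal, the authors' value for the strength of a peak, is on a scale that is not stated, so it is read within 1 list only. RpL7, a protein of the large subunit, had signals of 146 in replicate 1 and 208 in replicate 2 (ranked lists, which hold all peaks before the threshold) and 363 in the conservative list, the highest of any member. Its peak covered chr2L:10200867-10201182, with the summit 29 bp downstream of the TSS. RpL14, where mutations give a Minute phenotype, had 135 in replicate 1 and 173 in replicate 2, and 309 in the conservative list, with the summit 73 bp upstream of the TSS. RpL41, which encodes the shortest protein of the ribosome, had 121 in replicate 1 and 188 in replicate 2, and 308 in the conservative list. These 3 were the highest members in both replicates except that RpS27, with 125 in replicate 1, stood above RpL41 there. RpL34b followed with 90.0 in replicate 1, 161 in replicate 2 and 263 in the conservative list. RpL23A, a protein near the tunnel through which new chains leave, had 105 and 152 in replicates 1 and 2 and 256 in the conservative list. RpL32, whose transcript (rp49) is a common reference in fly expression assays, had 107 and 147, and likewise 256 in the conservative list. The next large subunit genes were RpL22 (211), RpL30 (201), RpL11 (180) and RpL19 (160), all in the conservative list. RpL11 is the partner of RpL5 in the particle that carries 5S rRNA. In the ranked list of replicate 1, RpL30 (57.9), RpL19 (58.1) and RpL11 (61.1) were close together, while in replicate 2 RpL30 reached 138, above RpL11 (107) and RpL19 (102).

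Among small subunit genes, RpS27 and RpS29 stood apart. RpS27, a zinc finger protein, had 125 in replicate 1 and 129 in replicate 2, and 258 in the conservative list, in a peak at chr3R:25247374-25247697 with its summit 11 bp upstream of the TSS. RpS29, another zinc-binding protein, had 110 in replicate 1 and 107 in replicate 2, and 221 in the conservative list. No other small subunit gene passed 160.2, the value of RpS20. Next came RpS25 (157), RpS21 (150), RpS28b (138), RpS14b (134) and RpS7 (133). sta had 39.9 in replicate 1, 94.4 in replicate 2 and 132 in the conservative list, with the summit 2 bp upstream of a TSS. RpS16, with 62.0 in replicate 1 and 72.2 in replicate 2, had 122 in the conservative list. RpS3A, the only member on the small chromosome 4, was bound with 120. The 3 lowest signals of bound members were those of RpS12 (67.4), known in the fly for its part in the competition between normal and Minute cells, RpS23 (73.1), a protein of the decoding centre, and RpL35 (86.4).

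**Figure D2:**
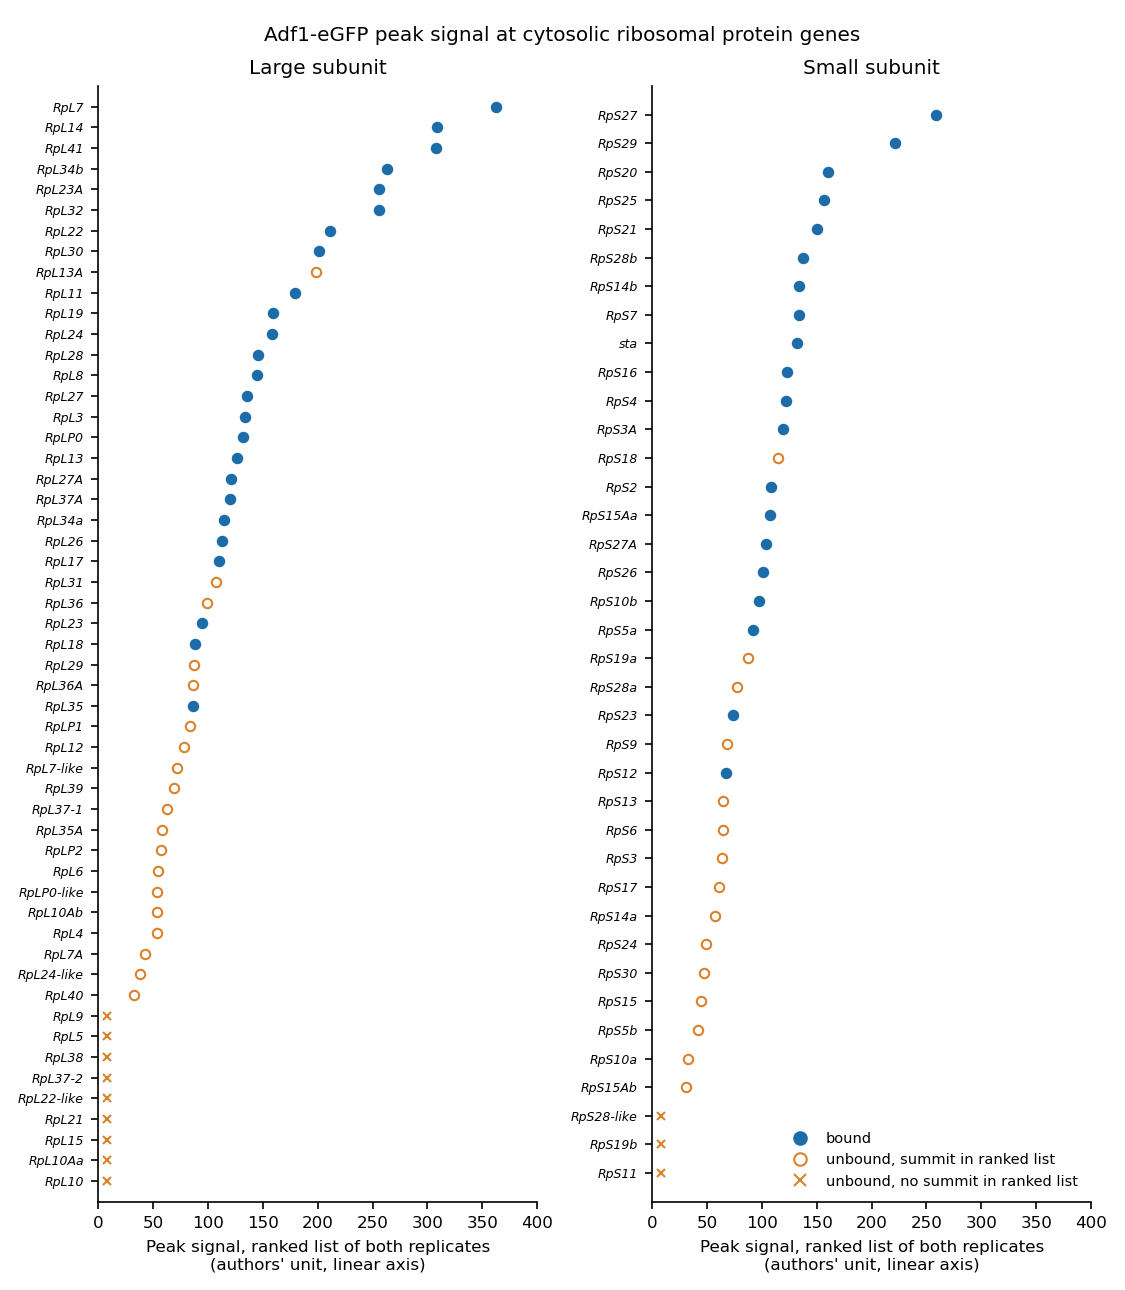
Peak signal of the strongest summit within 500 bp of a TSS in the ranked list of both replicates (horizontal axis, authors' unit, linear), for large subunit genes (left) and small subunit genes (right), with bound members as filled circles, unbound members with a summit as open circles and unbound members without a summit there as crosses drawn at the left edge with no value. RpL7 leads with 363, RpS27 and RpS29 lead the small subunit with 258 and 221, and the unbound RpL13A, at 198, lies among the stronger bound members.

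The signals of bound members lay toward the weaker side of the list, with a median place within the top 57.8%. They ran from 67.4 to 363 with a median of 133, and the median was 144 in the 26 large subunit genes and 122 in the 20 small subunit genes. All 2636 bound genes had a median of 153, and their highest value was 3544. Of the bound members 15 (32.6%) were in the stronger 50% of the list, 11 of the large subunit (42.3%) and 4 of 20 of the small, beside 51.4% of all bound genes. RpL7, the strongest, was within the top 18.1% of the summits in the list. The median peak interval was 510 bp wide among bound members and among all bound genes.

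Both replicates held a summit at each of the 46 bound members in their ranked lists. Of all bound genes 99.1% had one in replicate 1 and 99.7% in replicate 2, so this is a trait of the conservative list at large. In the thresholded list of replicate 1, 32 members were present (69.6%), beside 69.6% of all bound genes. In that of replicate 2 there were 43 (93.5%), beside 91.7% of all bound genes. There were 31 in both, and RpL17 in replicate 1 alone (57.3 in replicate 1, 54.7 in replicate 2 by the ranked lists). A further 12 were in replicate 2 alone: RpL3, RpL18, RpL23, RpL27, RpL27A, RpL34a, RpL35, RpS2, RpS4, RpS10b, RpS12 and RpS21. Among these, RpS21 had 40.1 in replicate 1 and 101 in replicate 2, RpL27 had 44.9 and 97.1, and RpL3, a protein near the catalytic centre, had 37.9 and 95.8. RpS26 and RpS5a were in neither thresholded list of a single replicate. RpS26 had 43.7 in replicate 1 and 46.6 in replicate 2, and RpS5a 52.4 and 44.9, and they were bound through the list for both replicates together (101 and 91.7). The median signal of bound members was 56.0 in replicate 1 and 84.3 in replicate 2. Their median place was within the top 8.72% of the ranked list in replicate 1 and the top 4.67% in replicate 2. That list is longer in replicate 2, with 61558 peaks against 27397 in replicate 1.

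Across the 46 bound members the Spearman correlation of signal between replicates was 0.57. It was 0.72 over the 26 large subunit genes and 0.36 over the 20 small subunit genes. These are descriptions across genes that share the same pair of libraries, and the conservative list was made by selecting peaks whose ranks were alike in both replicates. Over the 32 unbound members with a summit in both ranked lists the value was 0.011. The summits of the replicates lay a median of 30 bp apart at bound members (at most 129 bp, within 50 bp at 31 of 46) and 94.5 bp apart at those unbound members. At RpL30 the gap was 1 bp, at RpS14b 2 bp and at RpL41 7 bp.

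**Figure D3:**
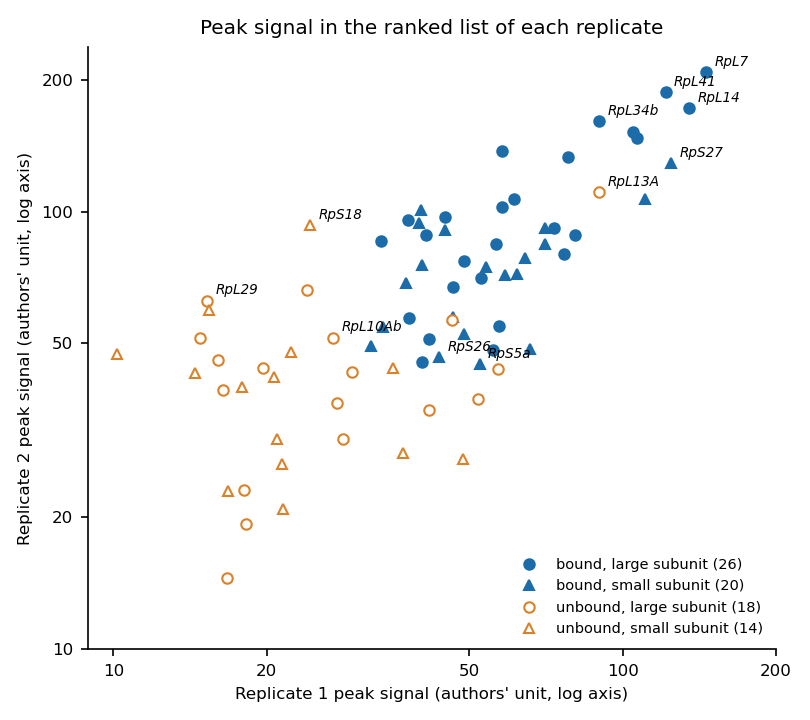
Peak signal of the strongest summit at each member in the ranked list of replicate 1 (horizontal axis) and replicate 2 (vertical axis), both in the authors' unit on log axes, for bound members (filled) and unbound members (open) of the large (circles) and small (triangles) subunit with a summit in both. Bound members lie toward the upper right, from RpL7 at 146 and 208 down to values near 32 and 45, and RpL13A lies among them.

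The summits of bound members lay close to the start of the gene. Their median position relative to the nearest TSS of the gene was -24.5 bp (negative is upstream), with a range from 253 bp upstream (RpS20) to 52 bp downstream (RpS12). The summit lay within 125 bp of a TSS at 43 of 46 members (93.5%), beside 55.6% of all bound genes, where 500 bp was the limit for both. Median distances were 33 bp for members and 112 bp for all bound genes. Of the 46 summits 34 were upstream of the TSS, 11 were downstream and that of RpS26 fell on it. In the large subunit 22 of 26 were upstream, with a median position of -58 bp, and 15 lay over 50 bp upstream. In the small subunit 12 of 20 were upstream, with a median position of -10.5 bp, and 5 lay over 50 bp upstream. Examples in the large subunit are RpL34b at 118, RpL41 at 111, RpL22 at 100, RpL32 at 98 and RpL23A at 97 bp upstream. In the small subunit RpS27 lay at 11, RpS14b at 10 and sta at 2 bp upstream, and RpS16 at 18 and RpS4 at 19 bp downstream. Individual genes do not follow these medians: RpL7, RpL30 and RpL3 had summits 29, 30 and 33 bp downstream, and RpL27A 1 bp upstream. The gap between the summits of the replicates at 1 gene (median 30 bp) was as large as many of these distances. A gene with more annotated start sites can only have a shorter distance to the nearest. Start sites numbered 2 or more in 57.7% of bound large and 70% of bound small subunit genes, beside 48.9% of all bound genes. From the outermost TSS the median distance of bound members was 55.5 bp, and that of all bound genes is not given here. The 500 bp limit touched few members: RpS20 was the farthest bound one, and the nearest unbound ones were RpS28a, RpS15 and RpS19a, with the nearest conservative summit at 555, 608 and 690 bp.

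**Figure D4:**
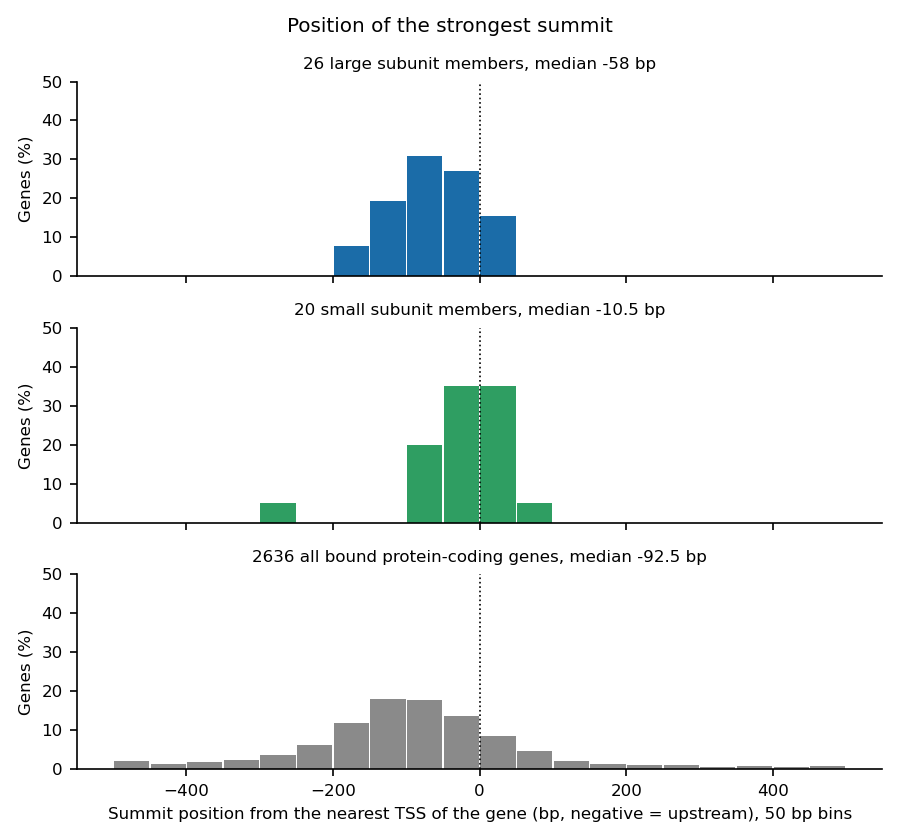
Position of the strongest conservative summit relative to the nearest TSS of the gene (horizontal axis, bp, negative is upstream, 50 bp bins) as a share of genes (vertical axis, percent) for bound large subunit genes, bound small subunit genes and all bound protein-coding genes. Both subunits gather within about 200 bp of the start, with medians at -58 and -10.5 bp, while all bound genes spread over the whole window with a median at -92.5 bp. The groups differ in the number of annotated start sites, which bears on the distance to the nearest.

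Many of these summits lay near the start of another gene too, about as often as at other bound genes. At 21 of 46 bound members (45.7%), 14 of the large and 7 of the small subunit, the TSS of another protein-coding gene was within 500 bp of the summit, beside 43.0% of all bound genes, and at 20 of the 21 that gene ran the other way from a shared promoter region. A peak in such a region cannot be assigned to 1 of the genes. The other gene was nearer in 5 cases, among them the following. At RpL13 the summit was 105 bp from its own TSS and 21 bp from that of Dref, which encodes the DRE-binding factor DREF. At RpL14 it was 73 bp from its own TSS and 54 bp from that of Nelf-E, a subunit of the complex that pauses RNA polymerase II. At RpS20 it was 253 bp from its own TSS and 80 bp from that of CG17271. At RpL41 it was 111 bp from its own TSS and 71 bp from that of NaCP60E, a sodium channel gene. At RpS27A, which encodes ubiquitin fused to a small subunit protein, the summit was 48 bp from its own TSS and 48 bp from that of Ip259 on the same strand. RpL7 (29 bp from its own TSS, 59 bp from that of Ripalpha) and RpS27 (11 bp from its own TSS, 133 bp from that of Nup37) were nearer themselves. The median signal was 145 with such a neighbour and 121 without one (25 genes). With each summit given to the nearest gene alone, 41 members were bound, 22 of the large and 19 of the small subunit, and 15.3% of all genes.

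Among groups of genes that share a name and number, 9 of 13 had exactly 1 bound gene, and 5 of 9 without symbols ending in -like. With 49.5% of all members bound, 1 bound copy in a pair is a common outcome, so this is no trait of the copies. By symbol there were 13 such families with 27 genes, of which 11 were bound (40.7%), and of the 66 members with 1 copy 35 were bound (53.0%). In 9 families exactly 1 copy was bound: RpL7 (363) but not RpL7-like, RpL22 (211) but not RpL22-like, RpL24 (159) but not RpL24-like, RpLP0 (132) but not RpLP0-like, RpS28b (138) but neither RpS28a nor RpS28-like, RpS14b (134) but not RpS14a, RpS15Aa (107) but not RpS15Ab, RpS10b (97.4) but not RpS10a, and RpS5a (91.7) but not RpS5b. RpLP0 is the base of the stalk that receives elongation factors. None of the 5 genes whose symbols end in -like was bound. Without them there were 9 families, with 1 copy bound in 5, both in 1 and none in 3. Of these, RpL7-like, RpL24-like and RpLP0-like are related to ribosome assembly factors of yeast, and RpL22-like is known in the fly for expression in the testis. RpS5b and RpS19b are known for expression in the germ line. RpL34 was the family with both copies bound, RpL34b at 263 and RpL34a at 114. In RpL10A, RpL37 and RpS19 no copy was bound. The copies RpS14a and RpS14b lie in a row with start sites 1156 bp apart. RpS14b had 53.8 in replicate 1 and 74.7 in replicate 2, and RpS14a 37.1 and 28.0 from separate summits in the ranked lists, with a combined ranked signal of 57.3 at 92 bp upstream. Copies that are nearly identical in sequence can lose reads that align to both, and how such reads were treated is not given in the sources used here.

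Most unbound members had a summit in the ranked lists. In the ranked list behind the conservative list, 81 of 93 members (87.1%) had a summit near a TSS under the same limit, against 51.4% of all genes. Replicate 1's ranked list held one at 82 members (88.2%), against 47.3% of all genes, and that of replicate 2 at 83 (89.2%), against 64.1%. Of the 47 unbound members 35 (74.5%) had one in the list behind the conservative list, beside 40.2% of all 11332 unbound genes. Their signals there ran from 30.8 to 198 with a median of 62.4, below the bound median of 133. Bound members were called by a score threshold on this same list, so lower signals in the others follow in part from the rule. Bound and unbound members overlapped in signal. In the replicates' own thresholded lists 9 unbound members appeared, 4 in replicate 1 (8.51%, beside 1.38% of all unbound genes) and 6 in replicate 2 (12.8%, beside 7.28%). Among them, RpL31, RpL36 and RpL36A were in that of replicate 1, and RpL10Ab, RpL29, RpL36, RpL39, RpS18 and RpS28a in that of replicate 2. RpS18 had 24.4 in replicate 1 and 93.3 in replicate 2, RpL29 had 15.3 and 62.6, and RpL31 had 56.9 and 43.6. RpL36 had 46.2 and 56.5, and its combined ranked signal was 98.7, beside 114 for RpS18, 107 for RpL31 and 87.5 for RpL29. The optimal list held 7 of the unbound members, namely RpL29, RpL31, RpL36, RpL36A, RpL39, RpLP1 and RpS18. That list is longer for genes at large too, with 23.2% of all genes against 18.9% in the conservative list. Its share of all unbound genes is not given here.

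RpL13A stood out among the unbound members. It encodes a large subunit protein that in mammals can also repress translation of inflammatory transcripts. Its summit was 74 bp upstream of the TSS, with 90.0 in replicate 1, 111 in replicate 2 and 198 in the ranked list for both, and with the highest score, 1000, in each of these 3 lists. It was the only unbound member whose summit passed the score minimum of 830, and the only one above the bound median, yet the thresholded lists used here do not hold it. The conservative list lacks 161 ranked peaks past that score, 102 of them on 3R, where RpL13A lies. With these peaks put back, 47 members were bound, 27 of the large and 20 of the small subunit.

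At the other end, 6 members had no summit up to 500 bp from any TSS in any of the lists: RpL9, RpL10Aa, RpL15, RpL37-2, RpS19b and RpS28-like. The share of all genes with no summit in any list is not given here. Single ranked lists held a summit at 47.3 to 64.1% of all genes, so lacking one is common among genes at large. The lack of a summit in these lists does not show that Adf1 was absent. The nearest conservative summit was a median of 8210 bp from unbound members, given without the distances of other unbound genes. It was over 100000 bp away at 6 of them: RpL15 (4318586 bp), RpL38 (1175453 bp), RpL5 (512032 bp), RpL21 (223215 bp), RpL10 (146802 bp) and RpL22-like (129290 bp). RpL5, RpL15 and RpL38 are known to lie in or near the repeat-rich DNA beside centromeres, and how many reads could be placed there was not tested. By arm, 9 of 15 members on X were bound (20.1% of all genes there), 9 of 14 on 3L (19.5% of all genes), 10 of 19 on 2L (18.6%), 10 of 23 on 3R (18.6%) and 7 of 21 on 2R (18.3%).

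Bound and unbound members carried the DRE at like shares. In the 300 bp around the canonical TSS (250 bp upstream and 50 bp downstream, both strands), TATCGATA was found in 14 of 46 bound (30.4%, 19.1 to 44.8%) and 14 of 47 unbound members (29.8%, 18.7 to 44.0%), beside 8.94% of all promoters. Members with the word were bound in 14 of 28 cases, and those without it in 32 of 65 (49.2%), while for all genes the shares were 25.1% with the word and 18.3% without it. GTCACACT was in 8 bound (17.4%, 9.09 to 30.7%) and 3 unbound members (6.38%, 2.19 to 17.2%), with overlapping intervals, beside 6.44% of all promoters. TATAAA was in 41.3% of bound and 48.9% of unbound members, beside 45.3% of all promoters. GAGAG, the core of the GAGA element, was in 17.4% of bound and 17.0% of unbound members, beside 30.2% of all promoters. CAGCTG, an E-box of core promoters, was in 10.9% and 8.51%, beside 17.9%. GCNGCNGC, a triplet word like those known from Adf1 sites, was in 4.35% of bound and 8.51% of unbound members, beside 9.51%. Matches of different words may overlap, and GAGAG can overlap itself in a run. A match is a run of letters, not a tested site, and the windows of genes that share a promoter overlap.

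At the summits themselves, bound members held the DRE and GTCACACT more often than the summits of the whole list, and GAGAG and GCNGCNGC less often. The intervals of these 4 words do not reach the shares of the list. In the 101 bp around the summit, TATCGATA was present at 8 of 46 bound members (17.4%, 9.09 to 30.7%), beside 1.56% of all 4370 summits and 3.41% of the strongest summits at all bound genes. Among these were RpL27, RpL41, RpS7, RpS10b, RpS15Aa, RpS25 and RpS29, and the word is in capitals in the sequences of RpL27, RpS25 and RpS29 above. GTCACACT was present at RpL7, RpL27A, RpLP0 and RpS23 (8.70%, 3.43 to 20.3%), beside 0.847% of all summits and 1.56% of those at all bound genes. GAGAG was present at 1 bound member (2.17%, 0.385 to 11.3%), beside 21.0% of all summits and 15.6% of those at all bound genes. GCNGCNGC was present at 2 (4.35%, 1.20 to 14.5%), beside 16.0% of all summits, a share above the interval. The interval does hold the 13.7% of summits at all bound genes. TATAAA (13.0%) and CAGCTG (6.52%) were near their shares over all summits (12.0% and 6.84%). Summits at promoters and elsewhere differ in base composition, which was not taken out of these shares. At the ranked-list summits of 35 unbound members, TATCGATA was present at 5 (14.3%, 6.26 to 29.4%).

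**Figure D5:**
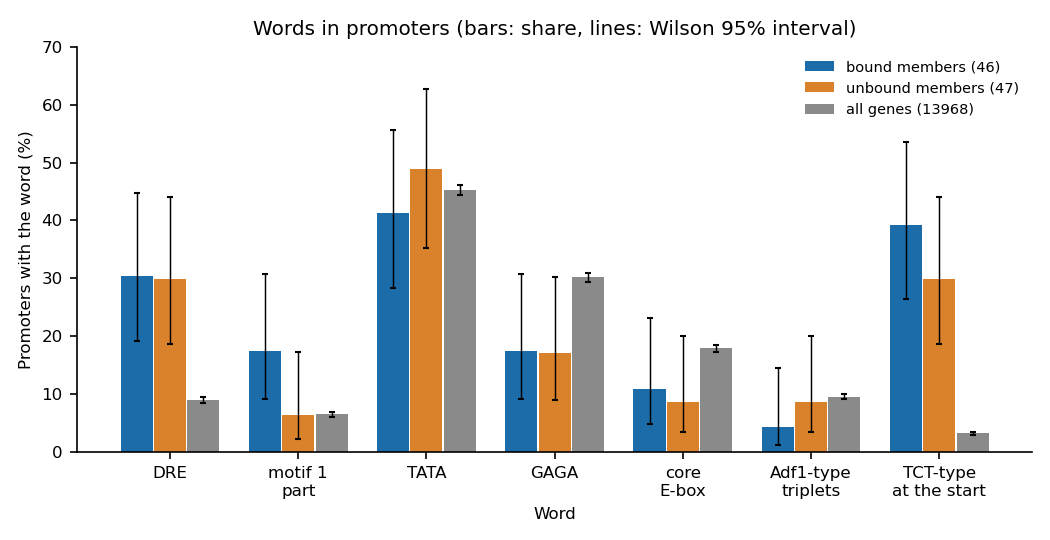
Share of 300 bp promoter windows with each word (vertical axis, percent; lines are Wilson 95% intervals) in bound members, unbound members and all protein-coding genes; the TCT-type words were searched at the TSS alone. The DRE was at 30.4% of bound and 29.8% of unbound members, beside 8.94% of all genes, and the TCT-type words at 39.1% and 29.8%, beside 3.16%.

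The bound and unbound members shared the marks of ribosomal protein genes and differed in their number of start sites. A TCT-type word (CTTTT or CTTTC on the sense strand, in the 14 bases from 5 before to 9 after the canonical TSS began) was found in 18 bound (39.1%, 26.4 to 53.5%) and 14 unbound members (29.8%, 18.7 to 44.0%), beside 3.16% of all genes. RpL14 and RpS25 among the bound and RpL9 among the unbound members show it in the sequences above. RpL27 and RpS14b among the bound and RpS14a and RpL13A among the unbound members have such a word that runs past the window. They were not counted, so these shares depend on the exact annotated TSS. A gene for a small nucleolar RNA, of the kind that guides rRNA modification and is cut from introns, lay inside 18 bound (39.1%, 26.4 to 53.5%) and 11 unbound members (23.4%, 13.6 to 37.2%), beside 0.687% of all genes. Annotated start sites numbered 2 or more in 29 bound (63.0%) and 16 unbound members (34.0%), beside 26.5% of all genes. Members with 2 or more were bound in 29 of 45 cases (64.4%, 49.8 to 76.8%) and those with 1 in 17 of 48 (35.4%, 23.4 to 49.6%). For all genes these shares were 34.8% and 13.1%. A gene with more start sites has more windows in which to be called. By the outermost TSS alone the shares were again 64.4% and 35.4% for members, and 24.5% and 13.1% for all genes. The median gene length was 1437 bp in bound and 1119 bp in unbound members, beside 2164.5 bp in all genes, and the median GC content of the promoter window was 39.3% and 35.7%, beside 38.0%. The TSS of another protein-coding gene lay within 500 bp of a TSS in 43.5% of bound and 38.3% of unbound members, beside 30.8% of all genes. The unbound members with 1 annotated start site include many copies of families, among them RpL22-like, RpL24-like, RpLP0-like, RpS10a, RpS15Ab, RpS19b, RpS28-like and RpS5b. These copies were not taken out of the values for start sites, length and small nucleolar RNA genes. A difference in the mix of genes can therefore not be told apart from one between bound and unbound genes.

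Genes that act on ribosomal protein genes or on growth were bound in 13 of 34 cases (38.2%, 23.9 to 55.0%), beside 18.9% of all genes, with a median signal of 136. Those with the highest values were the kinase gene Pdk1 (1319), the Myc antagonist gene Mnt (433), larp, which encodes the La-related protein that binds transcripts of ribosomal protein genes (374), and raptor, a subunit of the growth regulator TORC1 (326). The summit at raptor lay 472 bp downstream of its nearest TSS, close to the 500 bp limit. Thor, the 4E-BP gene, had 136, Rheb 134, Dref 126 and M1BP 87.1. Akt, InR, Myc, S6k, Tsc1, foxo, Trf2 and Xrp1 were unbound. In the ranked lists InR had 42.5 in replicate 1 and 103 in replicate 2, and Trf2 25.1 and 94.0, while Tsc1 had no summit in either. The value at Dref is the same peak as that of RpL13. Ribosome assembly factors were bound in 10 of 37 cases (27.0%, 15.4 to 43.0%), an interval that holds the 18.9% of all genes. Their median signal was 126, and the highest were those of eIF6 (749), which keeps the subunits apart until the large one is mature, and pes (231). Fib, the fibrillarin gene of the nucleolus, had 93.5. The share of bound members among the ribosomal protein genes, 49.5%, lay above both, but its interval (39.5 to 59.4%) overlaps with each of theirs. Both lists of pathway genes were chosen with earlier results of these data known, so their shares are descriptions only.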

How the data were processed

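ChIP-seq peak lists of 2 replicates in 1 group were used, on Release 6 (dm6): for each replicate and for both together, ranked and thresholded lists, 8 in all. Per the deposited file lists, the authors derived them from alignments and a control file by the irreproducible discovery rate (IDR). The sources used here do not name the aligner or the peak caller. The deposited score of each peak, from 0 to 1000, is a scaled IDR, and the thresholded lists begin at 830 (global IDR 0.01). The signal is the authors' peak-caller value, of unstated scale. The deposited summit offset gave the summit. No counts are in the lists, so depth is unknown.

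The Ensembl annotation (BDGP6.54, release 115) gave 13968 protein-coding genes on the 7 arms, and sequences came from the genome of the same build. A member was bound with a conservative summit within 500 bp of any TSS. Signals are those of the strongest such summit. With 1 group no test was made: counts, medians and Wilson intervals are descriptions. The coding sequences of all 93 members began with ATG in the genome used, and the calling of genes was tested on simulated data. The members, words and 2 lists of pathway genes, written from general knowledge of the fly, were chosen with earlier results of these data known. In those lists 34 of 40 and 37 of 46 symbols matched the annotation. Named members were the 10 strongest bound of each subunit, the 3 weakest, all copies of families, those missing from a list of a single replicate, and the unbound nearest to 500 bp (3) or strongest in the ranked list (5); others are named in counts, as examples or in other comparisons. Results for some members are not reported here by name, though they are in the counts. Alternatives numbered 10, with 1 added after seeing the data. Calculations were run in Python 3.11.15 with SciPy 1.17.1 and NumPy 2.4.6, and figures drawn in Matplotlib 3.10.9.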

Additional observations from a re-analysis of the deposited data

How the results depend on the processing

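The number of bound members, 46, was within 1.5 times under 9 of the 10 alternatives set at the start and the one added later, in which omitted peaks were put back. Of the 9, leaving out symbols ending in -like could not change the count, since none of those genes was bound. It changed the share alone, to 52.3% of 88 genes. By the stronger 50% of the list the count was 15, with 11 of the large and 4 of the small subunit, a median signal of 221 and a median distance of 57 bp. In single replicates' own lists the counts ran from 36 to 49. The median distance, 33 bp, was 43 to 47.5 bp in those lists, 48 bp with a limit of 1000 bp, 55.5 bp from the outermost TSS and 29 bp with a summit counted for the nearest gene alone. The cause of these changes was not tested. By their rules the stronger 50% holds fewer summits, and the outermost TSS leaves fewer start sites to measure from. No paired analysis was possible because there is 1 group. Depth is unknown, so a member without a peak may lie below what a replicate could show, and signals of the replicates' lists were not compared with the conservative list, having their own scales.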
